A study of Mus musculus with 18 samples.

Results

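The cells of the bone marrow that give rise to blood were compared here for the transcripts of 56 genes that copy DNA in S phase, the stage of the cell cycle in which the genome is replicated. The genes were taken by symbol from a named list, with no measured value in the rule, and all 56 were found among the 29717 symbols of each deposited count table. The libraries came from lineage-negative bone marrow progenitors of BALB/c mice, sorted as 3 populations labelled HSC, MPP1 and MPP4. In common usage HSC stands for haematopoietic stem cells, MPP1 for the multipotent progenitors closest to them, and MPP4 for lymphoid-primed multipotent progenitors. Cells were sorted straight into lysis buffer, and their messenger RNA was counted by CEL-Seq2, which tags single molecules at the poly(A) end. Controls carried wild-type Dnmt1. The mutants carried a Dnmt1 change made in mice after the structure of mutant fish proteins, and their genotype field reads dnmt1-/-, while the series text speaks of missense, hypomorphic mutations in the fish. There were 3 control and 3 mutant libraries of HSC, 2 and 2 of MPP1, and 4 and 4 of MPP4. The labels give no treatment, age or sex, and the groups differ by population, Dnmt1 genotype and sequencing batch. HSC were sequenced in batches A and C, MPP1 in C, and MPP4 in A, B and C, with controls and mutants in each. The series text gives as its question what such Dnmt1 changes do to progenitor transcriptomes.

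Replication begins before S phase, when the origin recognition complex, Cdc6 and Cdt1 load the MCM helicase onto origins, a step called licensing that geminin (Gmnn) blocks once S phase has begun. The kinase Cdc7 with Dbf4, the GINS complex and Cdc45 then start the helicase, polymerases alpha, delta and epsilon copy the strands, the sliding clamp PCNA holds polymerases on the template, and Fen1 and Lig1 join the fragments of the lagging strand. Many of these genes are transcribed together at the entry into S phase under the E2F family of transcription factors. Most stem cells of adult marrow rest outside the cell cycle, while multipotent progenitors divide more often. Dnmt1, which copies DNA methylation onto the newly made strand, works at the replication fork and binds PCNA.

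Promoter sequences are shown first, because the genes are known for shared control by E2F. The RefSeq promoter table (GRCm38.p6, 250 bases before to 50 after each start) held a window for 44 of the 56 genes. Letters of 4 E2F-type words (TTTCCCGC, TTTGGCGC, TTTCGCGC and TTTGCCGC, on either strand, overlaps counted) were found in the windows of 19 of the 44 genes, 43.2%. The same words were found in 2.6% of the windows of all 27025 genes of the table. Of 45 other replication genes with a window 31.1% held one, and of 49 genes of G2 and mitosis 4.08%. The CCAAT box, on either strand, was found in 61.4% of the replication genes and in 41.1% of all genes. Of the other replication genes 44.4% held it, and of the genes of G2 and mitosis 81.6%. The 2 words TTTGAA and TTCGAA, which spell the cell cycle homology region of mitotic promoters, were found in 20.5% of the replication genes, in 81.6% of the mitotic genes and in 21.7% of all genes. A match is a run of letters and not a measured binding site. Given here, 5′ to 3′ on the gene's strand, are 140 bases before and 10 bases from the RefSeq start of 7 genes, with E2F-type words in capitals. 2810417H13Rik (chr9:65890183-65890332, plus strand), Dtl (chr1:191575535-191575684, minus strand) and Pola1 (chrX:93632146-93632295, minus strand) were higher in MPP4 than in HSC in both genotypes. Mcm6 (chr1:128359696-128359845, minus strand) has 3 matches, of which 2 overlap, Orc1 (chr4:108579314-108579463, plus strand) and Cdca7 (chr2:72476079-72476228, plus strand) have 1, and Pcna (chr2:132253171-132253320, minus strand) has none of these words in its window, which says only that these letters are not there.
2810417H13Rik: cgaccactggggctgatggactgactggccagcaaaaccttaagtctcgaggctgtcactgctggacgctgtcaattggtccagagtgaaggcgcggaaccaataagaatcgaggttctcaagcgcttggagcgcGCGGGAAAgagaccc
Dtl: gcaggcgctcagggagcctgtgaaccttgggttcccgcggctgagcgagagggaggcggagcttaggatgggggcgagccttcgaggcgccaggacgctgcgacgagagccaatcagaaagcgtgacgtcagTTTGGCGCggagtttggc
Pola1: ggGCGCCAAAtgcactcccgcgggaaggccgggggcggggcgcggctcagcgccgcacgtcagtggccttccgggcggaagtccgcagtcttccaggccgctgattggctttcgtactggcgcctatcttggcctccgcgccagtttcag
Mcm6: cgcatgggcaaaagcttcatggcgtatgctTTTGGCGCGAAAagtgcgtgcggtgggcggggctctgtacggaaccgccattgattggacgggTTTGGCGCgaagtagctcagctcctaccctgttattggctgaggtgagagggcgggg
Orc1: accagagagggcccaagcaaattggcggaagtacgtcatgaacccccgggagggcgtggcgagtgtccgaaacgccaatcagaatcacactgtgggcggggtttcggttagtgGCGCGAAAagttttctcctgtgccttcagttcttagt
Cdca7: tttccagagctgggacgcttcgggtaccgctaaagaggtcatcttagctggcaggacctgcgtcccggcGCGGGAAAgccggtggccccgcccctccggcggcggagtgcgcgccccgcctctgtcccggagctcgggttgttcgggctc
Pcna: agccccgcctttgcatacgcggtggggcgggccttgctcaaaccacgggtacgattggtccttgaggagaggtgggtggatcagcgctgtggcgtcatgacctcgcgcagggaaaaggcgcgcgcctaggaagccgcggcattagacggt

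The word stands at the RefSeq start itself in 2810417H13Rik (first base at -5) and Dtl (-8), and farther upstream in Cdca7 (-71) and Pola1 (-138), counted from the RefSeq start. In the GENCODE annotation the gene 2810417H13Rik begins at chr9:65890237, upstream of that RefSeq start. Of the 51 windows, 44 had a start within 50 bases of a GENCODE start of the gene. Of the 21 genes with a window that were higher in MPP4 than in HSC controls, 13 held an E2F-type word, and of the 23 that did not pass that test, 6 did. The 21 come from 30 genes that were higher, and genes without a window could not be searched. Whether the words go with the difference was not tested. The words were searched in the promoter letters alone, and binding or activity of E2F was not measured.

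Depth ran from 354642 to 1943562 counts per library, and the 56 genes together took 0.269% to 0.874% of them. Values are given in CPM, a gene's counts with the library scaled to 1000000 counts, after TMM, a correction of library totals for composition. The column names hold 8 ID numbers that recur across populations. Nothing says that these are animals, so the spread behind the p-values may be technical or biological. Between genotypes it is the spread of libraries of a genotype, after batch in HSC and MPP4. Between populations it is the spread left after a term for each ID number. MPP4 control 2 and MPP4 mutant 2 have no other library of their ID number, so they add no pair to the population differences. Flt3, a receptor of lymphoid-primed progenitors, stood between 313 and 611 CPM in MPP4 and at 54.0 CPM or less in HSC and MPP1. Slamf1, a surface marker of stem cells, stood at 26.4 CPM or more in HSC and MPP1 and at 11.2 CPM or less in MPP4. The stem cell genes Procr and Pdzk1ip1 were also lower in every MPP4 library than in all others. Hlf, Mecom, Ly6a and Kit, of the same list, overlapped between MPP4 and HSC. Hlf stood at 903 CPM in MPP4 mutant 3, against 307 to 653 CPM in the HSC mutants. Flt3 and Slamf1 overlapped between HSC and MPP1. Dnmt1 transcript stood at 98.8, 216 and 270.1 CPM in the HSC controls and 119, 309 and 292 CPM in the HSC mutants, at 297 and 285 CPM and 216 and 285 CPM in MPP1, and at 249, 341, 354 and 374 CPM and 259, 228, 313 and 324 CPM in MPP4. Its groups overlapped in HSC and MPP4 and nearly met in MPP1, and a transcript level does not check a missense change. Transcripts of other cells differed between libraries. The 20 B-cell genes summed to 35660.4 CPM in HSC control 1, against 281 to 826 CPM in the other HSC libraries, with Cd79a and Igll1 at 0 in all 6. Ebf1 and Vpreb1 stood at 3.29 CPM each in HSC control 1, so nearly all of that sum came from other genes of the list. The 20 genes summed to 12977 CPM in MPP4 mutant 3, against 1778 to 2399 CPM in the other MPP4 mutants, with the B-cell factor Ebf1 at 200.2 CPM and Cd79a at 0 there. The 21 erythroid genes summed to 16447 CPM in HSC mutant 1, 31745 CPM in MPP1 control 2, 42040.1 CPM in MPP4 control 4 and at least 234054 CPM in MPP4 mutant 2, where Hba-a1 was at 36909 counts, the most that the molecular tags can give. Of the 56 genes none reached that limit. In the same libraries, in this order, the 16 neutrophil genes summed to 3212, 9208, 5376 and 40727.5 CPM. In every other library they summed to 2203 CPM or less. In bulk libraries such as these, fewer cells in S phase and less replication RNA per cell cannot be told apart.

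As a group, the 56 replication genes were lowest in control HSC and highest in MPP4. Their mean log2 CPM was 5.20, 5.52 and 5.78 in the HSC controls and 6.14, 6.02 and 5.79 in the HSC mutants. In MPP1 it was 5.96 and 6.14 in controls and 5.60 and 5.95 in mutants. In MPP4 it was 6.48, 6.68, 6.29 and 6.12 in controls and 6.49, 6.52, 6.32 and 6.56 in mutants. The MPP4 libraries lay above all HSC libraries of their genotype, and in HSC every mutant library lay above every control library. The MPP1 mutants lay below both MPP1 controls. Group means were 5.50 ± 0.29 (SD, n = 3) and 5.98 ± 0.18 (SD, n = 3) for HSC controls and mutants, 6.05 ± 0.13 (SD, n = 2) and 5.77 ± 0.25 (SD, n = 2) for MPP1, and 6.39 ± 0.24 (SD, n = 4) and 6.47 ± 0.11 (SD, n = 4) for MPP4. Both separations rested on the scaling. With totals in place of TMM, HSC mutant 3 stood at 5.87 and MPP4 control 4 at 5.67, both below HSC control 3 at 5.88.

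**Figure D1:**
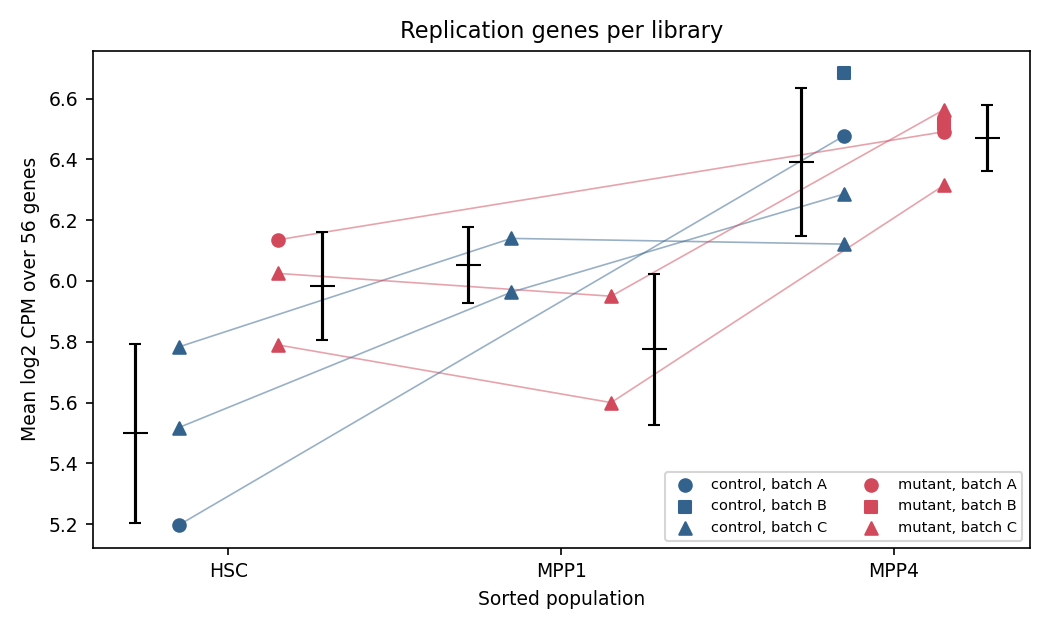
Mean log2 CPM over the 56 replication genes (y axis) in each library, by sorted population (x axis), genotype (colour) and sequencing batch (marker); thin lines join libraries with the same ID number, and black bars give the group mean ± SD. HSC controls lie between 5.20 and 5.78, and the 8 MPP4 libraries lie between 6.12 and 6.68.

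In controls, 30 of the 56 genes were higher in MPP4 than in HSC and none was lower (edgeR quasi-likelihood test in 1 fit of the 18 libraries, blocked by ID number, Benjamini-Hochberg adjusted p under 0.05). Of all 10613 genes tested, 5.82% were higher and 4% lower. The log2 difference was above 0 for 55 of the 56 genes, with a median of 0.85, and for 50% of all genes. At an unadjusted p under 0.05 there were 44 of the 56, against 20% of all genes. The values of 28 genes did not overlap between the 4 MPP4 and the 3 HSC controls, all higher in MPP4, as for 8.48% of all genes, while 7.25% of all genes lay wholly lower. Within an ID number, 55 of 56 genes were higher in MPP4 for that of HSC control 1, 51 for that of control 2 and 40 for that of control 3. Of all genes 53.7%, 52.1% and 46.8% were, in this order. Leaving out the libraries that share an ID number with HSC control 1, which had the high sum over the B-cell list and was the only HSC control of batch A, left 7 genes. Leaving out those of HSC control 2 gave 13, of which 12 were among the 30. The count was 9 in batch C alone and 17 with DESeq2, and the median was 0.63 both in batch C alone and with HSC control 1 and its ID number left out. The part of the genes of the B-cell list in these differences was not tested.

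Of the regulators of the clamp and of repair, 4 of 5 were higher in MPP4 controls. 2810417H13Rik, listed by RefSeq as a synonym of Pclaf, encodes the PCNA-associated factor PAF15 (gene at chr9:65890237-65903266, GRCm38). It stood at 41.2, 51.7 and 128.5 CPM in the HSC controls and at 414, 351, 289 and 512 CPM in the MPP4 controls. Every MPP4 control lay above every HSC control, and HSC control 3 was the highest of the HSC controls (log2 difference 2.57, SE 0.22, edgeR adjusted p = 1.94e-10). This was the smallest adjusted p among the 56 genes. Usp1, the protease that removes ubiquitin from PCNA, stood at 75.8, 86.1 and 60.3 CPM in HSC and 177, 269, 149 and 146 CPM in MPP4, again without overlap (log2 difference 1.05, SE 0.20, edgeR adjusted p = 0.000354). Dtl, a substrate receptor of the ubiquitin ligase that removes Cdt1 in S phase, stood at 82.4, 129.7 and 163 CPM in HSC and 235, 318, 235 and 202 CPM in MPP4, without overlap (log2 difference 0.91, SE 0.20, edgeR adjusted p = 0.00217). The exonuclease Exo1 passed, and the helicase Blm did not, and the differences of the 5 genes ran from 0.56 to 2.57.

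Both genes that finish the lagging strand were higher in MPP4. Lig1, the ligase that seals Okazaki fragments, stood at 75.8, 102 and 199 CPM in the HSC controls and 262, 281, 271 and 288 CPM in the MPP4 controls. The 3 HSC values were spread over a wider range than the 4 MPP4 values, and the groups did not overlap (log2 difference 1.26, SE 0.20, edgeR adjusted p = 3.33e-05). Fen1, the nuclease that trims the flap before ligation, stood at 54.4, 55.3 and 89.2 CPM in HSC and 156, 149, 133 and 149 CPM in MPP4, with no overlap (log2 difference 1.20, SE 0.21, edgeR adjusted p = 0.000104).

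Of the 10 genes of origin firing, 6 were higher in MPP4: Mcm10, Cdc45, Gins1, Gins2, Topbp1 and Wdhd1. The other 4, the GINS subunits Gins3 and Gins4 and the kinase pair Cdc7 and Dbf4, did not pass, and the 10 differences ran from 0.42 to 1.54. Topbp1, the scaffold that brings GINS and Cdc45 to the helicase, stood at 93.9, 147 and 155 CPM in HSC and 216, 274, 241 and 247 CPM in MPP4 (log2 difference 0.86, SE 0.19, edgeR adjusted p = 0.00176). Cdc45, a subunit of the active helicase, stood at 11.5, 10.9 and 21.0 CPM in HSC and 50.6, 26.7, 31.0 and 37.4 CPM in MPP4 (log2 difference 1.54, SE 0.36, edgeR adjusted p = 0.00343). Wdhd1, which ties polymerase alpha to the helicase, stood at 11.5, 26.3 and 44.6 CPM in HSC and 54.4, 63.2, 62.8 and 63.5 CPM in MPP4 (log2 difference 1.30, SE 0.30, edgeR adjusted p = 0.00325). For all 3 the groups did not overlap. HSC control 1 had the lowest value of Topbp1 and of Wdhd1. Of the MCM helicase, 4 of 6 subunits were higher, Mcm3, Mcm5, Mcm6 and Mcm7, while Mcm2 and Mcm4 did not pass, and differences ran from 0.47 to 0.93. Mcm6 stood at 120.2, 219 and 207 CPM in HSC and 440.4, 690.5, 340.1 and 247 CPM in MPP4, without overlap, with the highest value in MPP4 control 2 and the lowest in HSC control 1 (log2 difference 0.93, SE 0.22, edgeR adjusted p = 0.00348). Of the 6 licensing genes 2 passed, the loader Cdt1 and its inhibitor Gmnn, and the loader Cdc6 and the origin recognition genes Orc1, Orc2 and Orc6 did not. Cdt1 stood at 39.5, 68.0 and 110.1 CPM in HSC and 154, 196, 143.05 and 74.7 CPM in MPP4. Gmnn stood at 8.24, 24.5 and 47.2 CPM in HSC and 72.1, 97.3, 58.0 and 37.4 CPM in MPP4. For both genes MPP4 control 4 lay below HSC control 3. Orc2, an origin recognition subunit, was the 1 gene with a difference below 0, of -0.14, and did not pass.

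Of the 9 polymerase genes 5 were higher in MPP4, Pola1, Prim1, Pold1, Pold3 and Pole, with differences from 0.39 to 1.10 over the 9, of which Pola2, Prim2, Pold2 and Pole2 did not pass. Of the 3 genes of RPA, which coats single strands, Rpa2 passed and Rpa1 and Rpa3 did not. Prim1, the catalytic subunit of primase, stood at 37.9, 44.4 and 47.2 CPM in HSC and 104, 211, 80.3 and 97.1 CPM in MPP4, with no overlap (log2 difference 1.09, SE 0.24, edgeR adjusted p = 0.00168). Among 8 genes of the clamp and its loaders 3 passed, Rfc1, Rfc2 and Dscc1, with differences from 0.22 to 1.46 over the 8, and Pcna, Rfc3, Rfc4, Rfc5 and Chtf18 did not. Rfc2, a loader subunit, stood at 198, 107 and 165 CPM in HSC and 332, 249, 237 and 250.3 CPM in MPP4, without overlap (log2 difference 0.84, SE 0.18, edgeR adjusted p = 0.00164). Pcna, the clamp itself, stood at 115, 167 and 159.9 CPM in HSC and 399, 378, 223 and 105 CPM in MPP4. MPP4 control 4 lay below all 3 HSC controls, and Pcna did not pass (log2 difference 0.64, SE 0.29, edgeR adjusted p = 0.227). When that library and the others of its ID number, HSC control 3 among them, were left out, its difference was 1.04 with an edgeR adjusted p of 0.00276. Over the 14 alternative settings the difference of Pcna ran from 0.055 to 1.04. Pcna passed in 2 of these settings and did not pass in the other 12. Of the 3 fork protection genes Clspn and Tipin passed, and Timeless did not. Clspn, the checkpoint mediator claspin, stood at 8.24, 36.3 and 34.1 CPM in HSC and 69.6, 85.1, 73.9 and 131 CPM in MPP4, without overlap and with HSC control 1 the lowest (log2 difference 1.71, SE 0.31, edgeR adjusted p = 0.000169). Of the 4 chromatin assembly genes 1 passed, Chaf1a, a subunit of the histone chaperone CAF-1, and Chaf1b, Cdca7 and the histone mRNA binder Slbp did not. Cdca7, a partner of the remodeller Hells, stood at 90.6, 182 and 186 CPM in HSC and 192, 352, 223 and 168 CPM in MPP4, with overlapping groups, and did not pass.

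Of the 12 genes with the smallest adjusted p, 2810417H13Rik, Lig1, Fen1, Clspn and Usp1 passed under each of the 14 alternative settings. The other 7 of the 12 lost the call under 1 to 3 of them, in batch C alone or with the ID number of HSC control 1 or 2 left out.

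**Figure D2:**
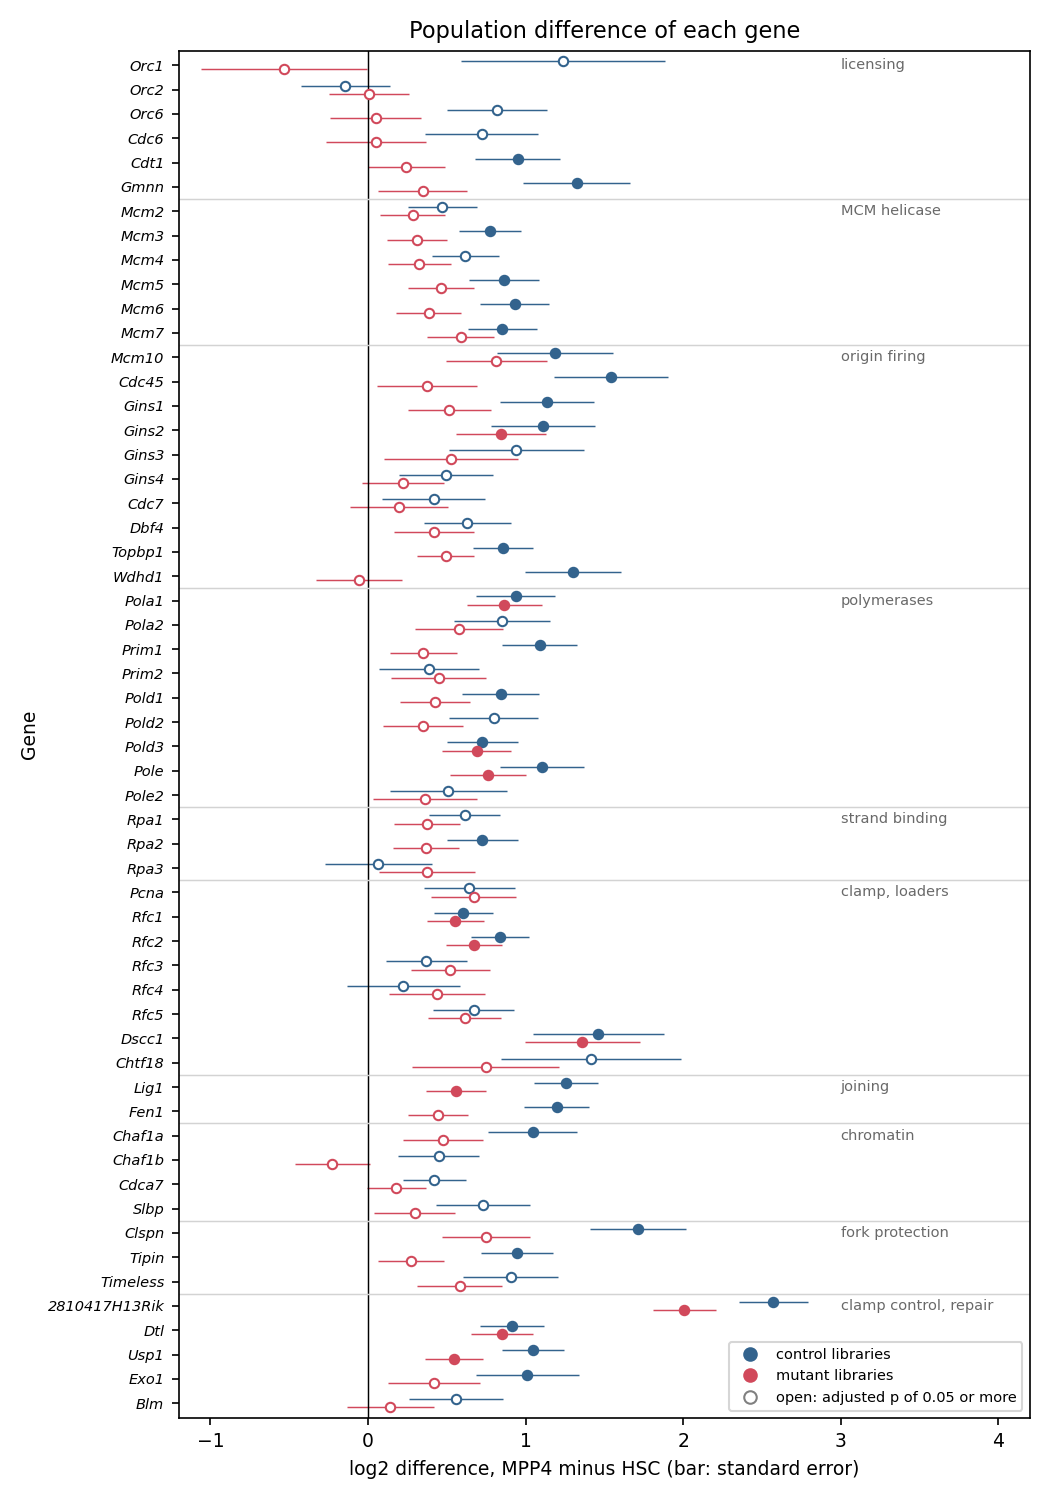
Log2 difference of MPP4 minus HSC (x axis) for each of the 56 genes (y axis), in controls (blue) and mutants (red), grouped by role; bars give the standard error and filled points have an adjusted p under 0.05. In controls 55 of 56 differences lie above 0, and 2810417H13Rik stands farthest to the right in both genotypes, at 2.57 and 2.01.

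In mutants, 11 of the 56 genes were higher in MPP4 than in HSC and none was lower, where 7.04% of all genes tested were higher and 5.66% lower. At an unadjusted p under 0.05 there were 22 of 56, against 23.1% of all genes. All 11 were among the 30 that passed in controls. The difference was above 0 for 53 of 56 genes, with a median of 0.43, where 45.5% of all genes had one above 0. For 7 genes all MPP4 mutants lay above all HSC mutants, as for 6.64% of all genes, and for none below, as for 6.14%. 2810417H13Rik stood at 126, 162 and 152 CPM in the HSC mutants and 635, 373, 571 and 569.8 CPM in the MPP4 mutants, without overlap (log2 difference 2.01, SE 0.20, edgeR adjusted p = 3.56e-09). Dtl stood at 92.3, 173 and 145 CPM and 181, 170.3, 318 and 248 CPM, and MPP4 mutant 2 lay below HSC mutant 2 (log2 difference 0.85, SE 0.20, edgeR adjusted p = 0.00245). Rfc2 stood at 271, 145 and 122 CPM and 361, 302, 213 and 269 CPM, with HSC mutant 1 above MPP4 mutants 3 and 4 (log2 difference 0.67, SE 0.18, edgeR adjusted p = 0.00856). Of the 11 genes, 3 encode polymerase subunits. Pola1, the catalytic subunit of polymerase alpha, stood at 29.9, 105 and 68.6 CPM and 87.9, 63.9, 153 and 124 CPM, and its groups overlapped, HSC mutant 1 being far below the other HSC mutants (log2 difference 0.87, SE 0.24, edgeR adjusted p = 0.0123). Pold3, of polymerase delta, stood at 51.6, 61.1 and 58.8 CPM and 77.6, 97.9, 105 and 102 CPM, without overlap (log2 difference 0.69, SE 0.22, edgeR adjusted p = 0.0309). Pole, of polymerase epsilon, had a difference of 0.76 (SE 0.24, edgeR adjusted p = 0.0314).

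The loader subunits Dscc1 and Rfc1 also passed in mutants. Dscc1 stood at 9.96, 13.8 and 19.6 CPM in HSC and 42.7, 23.4, 35.03 and 31.3 CPM in MPP4, without overlap (log2 difference 1.36, SE 0.36, edgeR adjusted p = 0.00869). Rfc1, Usp1, Gins2 and Lig1 had differences of 0.55, 0.55, 0.85 and 0.56, with edgeR adjusted p between 0.0383 and 0.0482. Lig1 stood at 158, 172 and 178 CPM in the HSC mutants and 222, 309, 275 and 266 CPM in the MPP4 mutants. Pcna stood at 296, 186 and 160.0 CPM and 521, 317, 218 and 317 CPM and did not pass (log2 difference 0.67, SE 0.27, edgeR adjusted p = 0.141). None of the MCM helicase genes or of the licensing genes passed. Their medians were 0.36 and 0.05 in mutants and 0.81 and 0.89 in controls. The count of 11 was 6, 4 and 3 when the 2 or 3 libraries that share an ID number with HSC mutants 1, 2 and 3 were left out in turn. Of the 6, 4 were among the 11. The count was 4 with DESeq2 and 6 with no replicate block, where batch replaced the ID number. In batch C alone it was 7, of which 4 were among the 11.

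The test of the difference between the genotypes passed for none of the 56 genes in MPP4 minus HSC (edgeR quasi-likelihood interaction test, where 0.0283% of all genes passed), with DESeq2 calling 0 as well. At an unadjusted p under 0.05 there were 9 of 56 genes, against 3.88% of all genes. The interaction was below 0 for 50 of 56 genes and above 0 for 6, where 45.4% of all genes were above 0, with a median of -0.37 over the 56. In batch C alone the median was -0.14. The smallest p was that of Wdhd1 (log2 difference -1.36, SE 0.41, edgeR adjusted p = 0.721), followed by Fen1 with -0.75, Lig1 with -0.70, Cdc45 with -1.17 and Prim1 with -0.74. The value of Pcna was 0.03 (SE 0.40). Wdhd1 stood at 45.3, 49.9 and 47.4 CPM in the HSC mutants and 38.8, 46.8, 35.03 and 61.0 CPM in the MPP4 mutants, so its groups overlapped there while those of the controls did not.

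**Figure D3:**
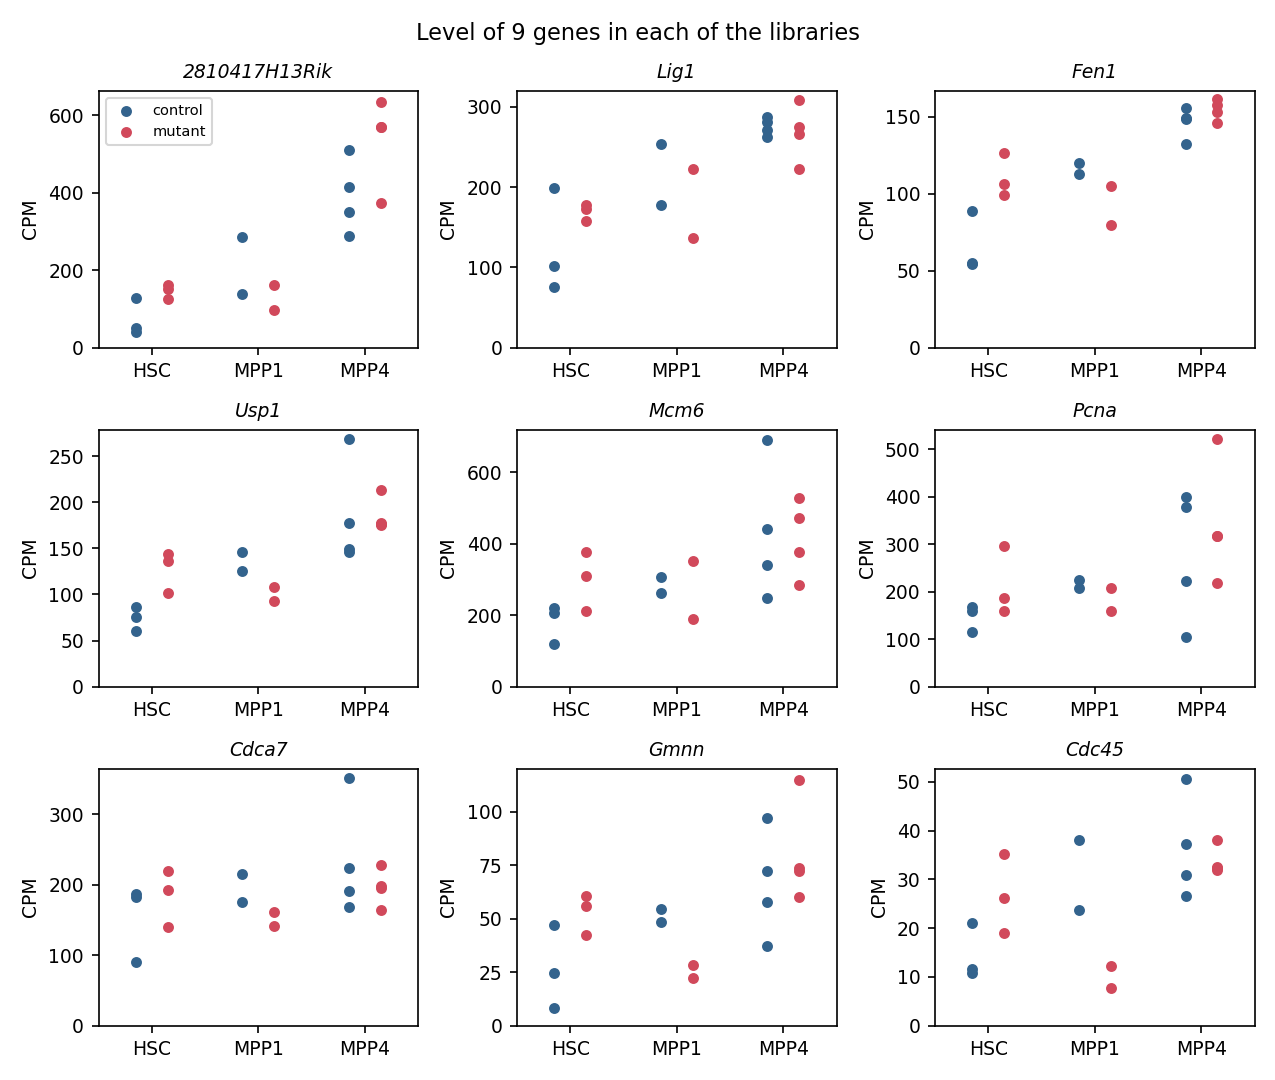
CPM (y axis, from 0) of 9 replication genes in each library, by population (x axis) and genotype (blue, control; red, mutant); each point is 1 library. 2810417H13Rik lies between 41.2 and 162 CPM in HSC and between 289 and 635 CPM in MPP4, and Cdc45 and Gmnn are lower in both MPP1 mutants than in both MPP1 controls.

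The mean of the MPP1 controls lay between those of the HSC and MPP4 controls. All 56 genes had a difference above 0 in MPP1 minus HSC controls, with a median of 0.50, where 50.3% of all genes did. Of the 56 genes 1 passed, 2810417H13Rik, where 0.207% of all genes were higher and 0.0283% lower. It stood at 139.7 and 285 CPM in the 2 MPP1 controls, both above the HSC controls (log2 difference 1.46, SE 0.24, edgeR adjusted p = 0.00193). With the ID number of HSC control 2 left out, which leaves 1 MPP1 control whose spread is taken from the other groups, it no longer passed (1.47, edgeR adjusted p = 0.0883), nor when batch replaced the ID number (no replicate block, 1.504, edgeR adjusted p = 0.484). Usp1 at 146 and 125 CPM, Fen1 at 113 and 119.8 CPM, Lig1 at 178 and 254 CPM and Cdc45 at 23.8 and 38.1 CPM had the next smallest p, with differences of 0.89, 0.84, 0.70 and 1.18. Pcna had a difference of 0.67 (SE 0.32). At an unadjusted p under 0.05 there were 19 of 56 genes, against 5.34% of all genes, and for 27 genes both MPP1 controls lay above the HSC controls, against 9.96% of all genes, and for none below, against 8.46%.

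In mutants, MPP1 did not stand above HSC. No gene passed in MPP1 minus HSC (edgeR and DESeq2 both 0, where edgeR called 0.0471% of all genes), 3 had an unadjusted p under 0.05, against 7.4% of all genes, and 22 of 56 differences were above 0, against 48.8%, with a median of -0.15. For 8 genes both MPP1 mutants lay below every HSC mutant, as for 14.7% of all genes, and for 1 above, as for 11.1%. The 3 with the smallest p were Rpa1, the large subunit of RPA, with -0.71, Cdc45 with -1.22 and Gmnn with -0.98. Rfc2 and Cdc6, the next 2, had 0.44 and -0.83. Pcna had 0.16 (SE 0.33). Within the 2 ID numbers that hold both populations, 19 and 17 of 56 genes were higher in MPP1 mutants, and 51 and 40 in the 2 pairs of controls. Of all genes 47.5% and 47.2% were higher in the mutant pairs, and 50.4% and 51.2% in the control pairs. The interaction (MPP1 minus HSC, mutants less controls) was below 0 for 52 of 56 genes and above 0 for 4, where 48.6% of all genes were above 0, with a median of -0.62, and 9 genes had an unadjusted p under 0.05, against 4.76% of all genes. None passed in edgeR or DESeq2, and edgeR called 0% of all genes. The smallest p was that of 2810417H13Rik (log2 difference -1.61, SE 0.35, edgeR adjusted p = 0.249), and it passed with no filter on low counts (-1.67, edgeR adjusted p = 0.0204). Cdc45, Usp1, Gmnn and Fen1 followed with -2.40, -1.17, -1.97 and -1.04, and Pcna had -0.52.

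Between MPP4 and MPP1, 2 of 56 genes were higher in MPP4 controls, where 1.86% of all genes were higher and 1.72% lower: 2810417H13Rik (log2 difference 1.12, SE 0.24, edgeR adjusted p = 0.00287) and Topbp1 (log2 difference 0.81, SE 0.22, edgeR adjusted p = 0.027). Topbp1 stood at 147 and 149 CPM in MPP1 controls, and all 4 MPP4 controls were above both. Pola1, Clspn and Wdhd1 were next, with 0.91, 1.02 and 0.96, and Pcna was at -0.03 (SE 0.34). Of the 56 differences 48 were above 0, against 50.6% of all genes, with a median of 0.33, and 8 had an unadjusted p under 0.05, against 12.8%. For 18 genes all MPP4 controls lay above both MPP1 controls, against 9.34% of all genes, and 0 genes lay below, against 8.89%. Within the 2 ID numbers that hold both populations, 49 of 56 genes were higher in MPP4 in 1, against 51.7% of all genes. In the other 25 of 56 were, or 44.6%, against 44.9% of all genes. The count of 2 became 1 when the ID number of HSC control 1 was left out and 4 when that of HSC mutant 1 was. It was 0 and 1 when those of HSC controls 2 and 3 were, and each of these leaves 1 MPP1 control, whose spread is taken from the other groups. In mutants 5 genes were higher, where 3.03% of all genes were higher and 3.17% lower, and 23 had an unadjusted p under 0.05, against 17.8%. 2810417H13Rik stood at 97.6 and 162 CPM in the MPP1 mutants, below all 4 MPP4 mutants (log2 difference 2.16, SE 0.25, edgeR adjusted p = 5.52e-07). Rpa1 stood at 48.8 and 59.4 CPM in MPP1 and 132, 123, 105 and 129 CPM in MPP4 (log2 difference 1.08, SE 0.29, edgeR adjusted p = 0.0172). Usp1, Topbp1 and Mcm7 had differences of 0.83, 0.79 and 0.85, with edgeR adjusted p between 0.0266 and 0.0455. Pcna had 0.51 (SE 0.34). Of the 56 differences 50 were above 0, against 48.6% of all genes, with a median of 0.52. For 25 genes all MPP4 mutants lay above both MPP1 mutants, against 13.6% of all genes, and 0 lay below, against 12.5%. Within the 2 ID numbers that hold both populations, 53 and 50 of 56 genes were higher in MPP4, against 55.2% and 48.7% of all genes. When the ID number of HSC mutant 2 or 3 was left out, which leaves 1 MPP1 mutant with its spread taken from the other groups, 1 gene passed. The interaction passed for no gene in edgeR or DESeq2 (edgeR called 0% of all genes), and 2 genes, 2810417H13Rik with 1.05 and Usp1 with 0.67, had an unadjusted p under 0.05, against 4.39% of all genes. The interaction was above 0 for 39 of 56 genes, against 48.6% of all genes. Rpa1, Cdc45, Gmnn and Pcna were at 0.77, 1.24, 0.997 and 0.54. These population comparisons share libraries with one another.

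Between genotypes in HSC, the replication genes had values above those of controls as a group, and no single gene passed the test. Of 55 genes tested (Orc1 did not pass the filter on low counts) 53 had a log2 difference above 0 in mutant minus control, with a median of 0.50, where 51.3% of all 9147 genes did, with a median of 0.01. None passed in edgeR, which called 0.241% of all genes, or in DESeq2, and 17 had an unadjusted p under 0.05, against 10% of all genes. For 10 genes the 3 mutants lay above the 3 controls, as for 5.06% of all genes, and for none did they lie below, as for 4.33%. The difference was not even between batches. The mean log2 CPM differed by 0.94 between the 2 libraries of batch A and by 0.26 between the 4 libraries of batch C, where 48 of 56 genes were higher in mutants. The median of the tested differences was 0.28 in batch C alone, 0.28 without HSC control 1 and 0.27 without HSC mutant 1. HSC control 1 is the library with a sum of 35660.4 CPM over the 20 genes of the B-cell list, with Cd79a and Igll1 at 0. HSC mutant 1 is the one with 16447 CPM of erythroid transcripts. The part of these 2 libraries in the pooled value was not tested.

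The smallest p in HSC was that of 2810417H13Rik, with 41.2, 51.7 and 128.5 CPM in controls and 126, 162 and 152 CPM in mutants. HSC mutant 1 lay just below HSC control 3, so the groups overlapped (log2 difference 1.09, SE 0.29, edgeR adjusted p = 0.178). The replicate number of the titles is not known to pair the samples. With it as a block in place of batch, 2810417H13Rik passed (1.14, edgeR adjusted p = 0.0243), the 1 gene of the 56 to do so. It also passed without HSC control 3 (1.60, edgeR adjusted p = 0.00723) and with no filter on low counts (1.12, edgeR adjusted p = 0.0103). In the other 11 of the 14 alternative settings 2810417H13Rik did not pass. Its difference ran from 0.78 to 1.60 over the 14. Prim1 stood at 37.9, 44.4 and 47.2 CPM in controls and 75.1, 94.7 and 68.6 CPM in mutants, without overlap (log2 difference 0.88, SE 0.28, edgeR adjusted p = 0.276). Usp1 stood at 75.8, 86.1 and 60.3 CPM and 143.9, 136 and 101 CPM, and Fen1 at 54.4, 55.3 and 89.2 CPM and 126.7, 99.0 and 106 CPM. Neither gene had overlapping groups, with differences of 0.73 (SE 0.25) and 0.76 (SE 0.27). Gmnn stood at 8.24, 24.5 and 47.2 CPM and 60.6, 55.98 and 42.5 CPM, and HSC control 3 lay above HSC mutant 3 (log2 difference 1.15, SE 0.38, edgeR adjusted p = 0.315). Pcna stood at 115, 167 and 159.9 CPM and 296, 186 and 160.0 CPM, with a difference of 0.48 (SE 0.26). All 10 roles had a median above 0, from 0.38 for the clamp and its loaders to 0.73 for licensing.

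In MPP1 the differences lay the other way, again with no gene past the test (edgeR and DESeq2 both 0, where edgeR called 0.225% of all genes). Of 53 genes tested 13 were above 0, against 49.6% of all genes, with a median of -0.20, and 3 had an unadjusted p under 0.05, against 4.86% of all genes. Both mutants lay below both controls for 15 genes, where 19.3% of all genes did, and above them for 3, where 14.6% did. Cdc45 stood at 23.8 and 38.1 CPM in controls and 7.71 and 12.3 CPM in mutants (log2 difference -1.48, SE 0.57, edgeR adjusted p = 0.843). Gmnn stood at 48.3 and 54.4 CPM and 28.3 and 22.5 CPM (log2 difference -0.97, SE 0.41, edgeR adjusted p = 0.903). Rpa1 stood at 81.7 and 98.0 CPM and 48.8 and 59.4 CPM (log2 difference -0.67, SE 0.31, edgeR adjusted p = 0.994). In each of these 3 genes both mutants were below both controls. Gins1 of the GINS complex and Mcm2 had -0.77 and -0.51, and Pcna had -0.19 (SE 0.24). Without MPP1 control 1, 2810417H13Rik passed at -1.11 (edgeR adjusted p = 0.0308). MPP1 control 2, which then stands alone and is assumed to vary like the mutants, is the library with 31745 CPM of erythroid transcripts, whose part was not tested.

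In MPP4 the 2 genotypes lay close together. No gene passed in edgeR, which called 0.0852% of all genes, or in DESeq2, and none of the 56 had an unadjusted p under 0.05, against 7.11% of all genes. The median difference was 0.08, with 38 of 56 above 0, against 49.5% of all genes. For 1 gene, the clamp loader subunit Chtf18, all mutants lay above all controls, as for 1.32% of all genes, and for none below, as for 1.65%. Chtf18 stood at 21.5, 18.7, 16.7 and 22.4 CPM in controls and 25.9, 34.1, 32.5 and 27.1 CPM in mutants (log2 difference 0.62, SE 0.33, edgeR adjusted p = 0.775). Rfc4, 2810417H13Rik, Pcna and Wdhd1 followed with 0.60, 0.43, 0.37 and -0.39. The mean log2 CPM differed by 0.01 between the libraries of batch A, -0.17 in batch B and 0.24 in batch C. MPP4 mutant 2 of batch B holds at least 234054 CPM of erythroid transcripts, and its mean of 6.52 lay between those of the other MPP4 mutants. With total counts in place of TMM its mean was 6.23, the lowest of the MPP4 mutants.

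**Figure D4:**
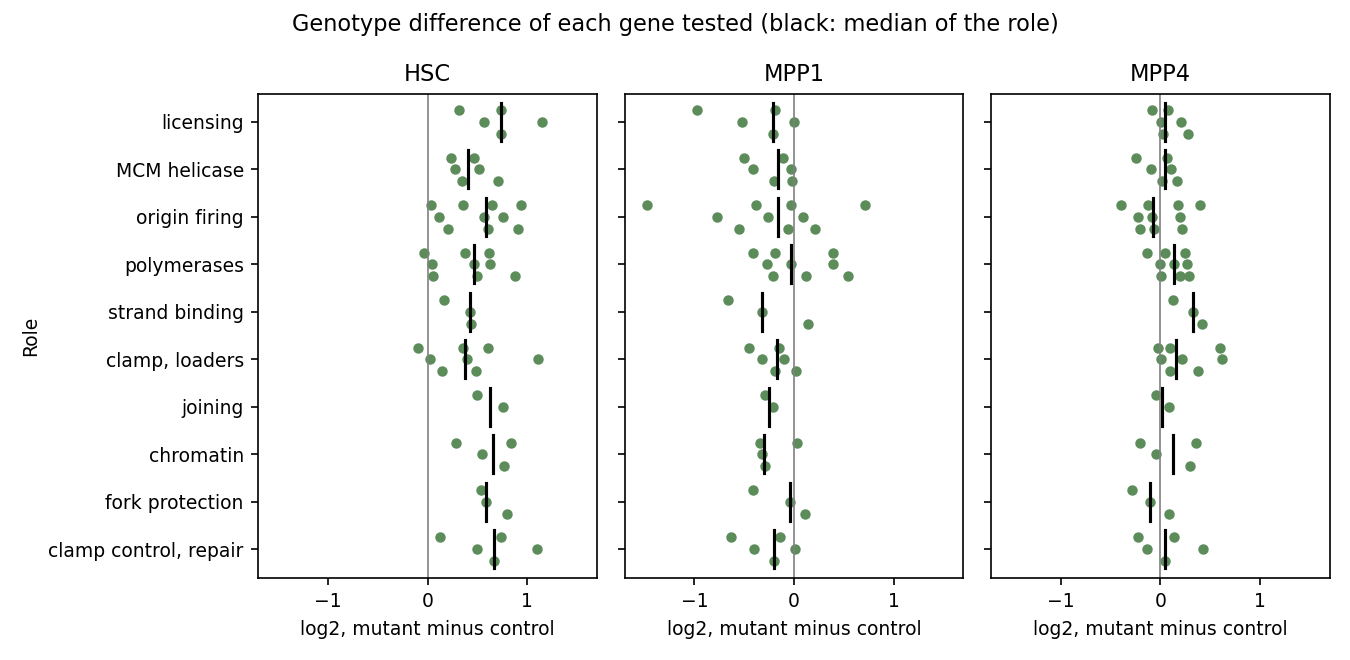
Log2 difference of mutant minus control (x axis) for each gene tested in HSC, MPP1 and MPP4 (panels), by role (y axis); each point is 1 gene and the black line is the median of its role. The medians of all 10 roles lie above 0 in HSC and below 0 in MPP1, and none of the points passed the test.

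In the authors' deposited tables of mutant against control, all 56 genes had a log2 fold change above 0 in HSC, with a median of 0.44. In the authors' deposited tables for MPP1 and MPP4 5 and 31 of the 56 were above 0, with medians of -0.22 and 0.05. None of the 56 had an adjusted p under 0.05 in the authors' deposited tables, the smallest being 0.999923 in HSC, 0.998444 in MPP1 and 0.999576 in MPP4.

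Neighbouring pathways were read from lists of genes outside the 56. Of all genes tested, 5.82% were higher in MPP4 than in HSC controls and 7.04% in mutants. Of 54 other replication genes 21 were higher in controls and 11 in mutants, of 26 genes of nucleotide synthesis 9 and 4, and of 56 genes of G2 and mitosis 42 and 48. E2f2, an E2F family member, had a difference of 3.52 (SE 0.53, edgeR adjusted p = 1.37e-05) in controls. Uhrf1, which brings Dnmt1 to hemimethylated DNA, had 1.44 (SE 0.24, edgeR adjusted p = 5e-05), and stood at 21.4, 66.2 and 83.9 CPM in HSC controls and 122, 102, 161 and 138 CPM in MPP4 controls. Between genotypes in HSC the differences of these lists also lay mostly above 0. For G2 and mitosis 50 of 54 were above 0, with a median of 0.64 and 31 at an unadjusted p under 0.05. For nucleotide synthesis 25 of 26 were above 0, with a median of 0.49, and for the other replication genes 41 of 50, with a median of 0.28. In this comparison 51.3% of all genes were above 0, 10% had an unadjusted p under 0.05, and edgeR called 0.241%. Of the nucleotide genes 1 passed, Tyms, which makes thymidylate. It stood at 21.4, 23.6 and 26.2 CPM in controls and 61.6, 73.2 and 71.9 CPM in mutants, without overlap (log2 difference 1.53, SE 0.31, edgeR adjusted p = 0.0187). In MPP1 the medians of the 3 lists were -0.23, -0.17 and -0.18. In MPP4 the genotype difference of the G2 and mitosis genes had a median of 0.66, with 54 of 56 above 0, against 49.5% of all genes. There 36 had an unadjusted p under 0.05, against 7.11% of all genes, while 0 passed in edgeR and 4 in DESeq2. The replication genes had a median of 0.08 in the same comparison, and the difference between the 2 lists was not tested. The mitotic gene Spc24 was lower in MPP1 mutants (log2 difference -2.66, SE 0.41, edgeR adjusted p = 0.00115).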

How the data were processed

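Messenger RNA of sorted cells was measured by CEL-Seq2, which counts molecular tags (UMIs) at the poly(A) end, per the labels' protocols. The deposited count tables hold estimated counts: 100% of the 1557 values from 1000 up lay on the grid of a collision correction for 4096 UMIs. The submitters' processing notes name mm10, R 3.4.0 and DESeq2; for the aligner, counter and annotation the sources used here say nothing. Per the file headers, the authors' result tables hold the mean signal, the log2 fold change and its error, the score of the test, and the p-value and adjusted p-value.

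The counts were used as deposited. Each population was fitted with edgeR 4.0.16 in R 4.3.3: TMM, genes kept from a count of 10, a quasi-likelihood fit (robust) of genotype and batch (genotype alone in MPP1), and Benjamini-Hochberg adjustment over all genes at 0.05. Populations were compared in 1 fit of 18 libraries, blocked by ID number. DESeq2 1.42.0, other filters, scalings and blocks, batch C alone and leaving out libraries were the alternatives. In counts simulated without batch or ID effects, 29%, 19% and 26% of genes changed 2-fold were called between genotypes in HSC, MPP1 and MPP4. In MPP4 minus HSC controls 32% were. At 4-fold 79% to 92% were called. Of 113 to 132 calls per fit, 5 to 11 were false. A gene that did not pass may therefore still differ by 2-fold. Replicates differed by more than counting noise in every pair (chi-square over its degrees of freedom, 2.96 or more), so each library counted as 1 sample. Mean log2 CPM used a prior count of 2.

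Libraries with the same replicate number deviated together in HSC (correlations of 0.494, 0.2 and 0.224 over genes). Batch was not removed from these deviations, and same-numbered libraries share a batch, so the correlations cannot tell a pairing from batch. In batch C the replicate numbers also join other ID numbers in HSC than in MPP1 and MPP4. The replicate block was therefore an alternative only. With DESeq2 size factors the median of all genes moved by 0.0246 or less on the log2 scale.

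The genes, lists and tests were chosen with earlier results of these data known. Genes were named as follows: in each comparison up to 12 called genes with the smallest adjusted p, or the 5 with the smallest p where fewer than 3 were called, and Pcna. The other genes of a role were named without this rule, after their values were seen, to say which passed. All columns of the count tables were matched to samples.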

Additional observations from a re-analysis of the deposited data

Results flagged for a closer look

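In 5 of the 114 sets of 4 MPP4 libraries examined, 1 library stood far from the other 3 on Dixon's test, which chance alone does in about 1 in 20 sets. Orc2 was at 65.02 CPM in MPP4 control 2 and between 35.76 and 37.97 CPM in the other controls. Rfc2 was at 332.2 CPM in MPP4 control 1 and between 236.8 and 250.3 CPM in the others. Wdhd1 was at 54.42 CPM in MPP4 control 1 and between 62.78 and 63.51 CPM in the others. Cdc45 was at 38.1 CPM in MPP4 mutant 4 and between 31.94 and 32.53 CPM in the other mutants. Usp1 was at 213.4 CPM in MPP4 mutant 4 and between 175.8 and 177.7 CPM in the others.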

How the results depend on the processing

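Of the counts of replication genes past the threshold, several moved with the setting. A moved count can include genes that the main fit did not call. For MPP4 minus HSC in controls the count of 30 was 17 with DESeq2, 9 in batch C alone and 7 to 35 when the libraries of 1 ID number were left out. In mutants its count of 11 was 4 with DESeq2, 6 with no replicate block (here and after, batch replaced the ID number), 7 in batch C alone and 3 to 13 with an ID number left out. For MPP4 minus MPP1 the count of 2 in controls was 1 with DESeq2, 4 with no filter on low counts, 1 with no replicate block and 0 to 4 with an ID number left out. In mutants the count of 5 was 1 with DESeq2, 8 with no filter, 2 with no replicate block, 8 in batch C alone and 1 to 6 with an ID number left out. For MPP1 minus HSC in controls the count of 1 was 0 with no replicate block and 0 to 1 with an ID number left out, and its interaction with genotype went from 0 to 1 with no filter. Between genotypes in HSC the count of 0 became 1 with no filter and 1 with the replicate block, and was 0 to 1 with a library left out; in MPP1 it was 0 to 1. Pcna in MPP4 minus MPP1 controls reversed from -0.03 to 0.000406 with the stricter filter (minimum count of 30), and ranged from -0.35 to 0.42 with an ID number left out. The replicate block moved no other count of genotype calls. In MPP1 and MPP4 deviations of same-numbered libraries correlated at 0.175 and at 0.328, -0.0217, 0.342 and -0.0166. The number is not known to pair samples in any population. With total counts in place of TMM the mean log2 CPM became 6.12 in MPP1 control 1, 5.67 in MPP4 control 4, 6.29 in MPP4 mutant 1 and 6.23 in MPP4 mutant 2. In the comparisons other than the interactions, each difference of a gene named by the rule kept its sign under the alternatives run, with this 1 exception of Pcna. The causes were not tested. Counts per gene were low: the 56 genes summed to 1415 counts in the thinnest library, which limits the precision of single genes.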
